A study of Arabidopsis thaliana with 9 samples.

Results

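The type I MADS genes described here are 10 transcription factor genes of Arabidopsis that are best known from the endosperm and the central cell that gives rise to it: PHE1, PHE2, AGL35, AGL36, AGL90, AGL80, AGL61, AGL62, AGL40 and AGL23. They were chosen by name, by matching 10 loci to the sequence IDs of the array, and make up 10 of the 30361 genes measured. All 10 were on the array with 2 probes each. The reference annotation gives no symbol to the loci of AGL35 (AT5G26630) and AGL40 (AT4G36590), so these 2 names come from the list of members alone. Expression was measured in whole seedlings grown for 12 days in 16 h light and 8 h dark at 22 °C, with 3 arrays for clf swn, 3 for siFIE and 3 for wildtype Col, each array from 1 pool of 10 to 12 plants. The clf swn plants lack both CLF and SWN, histone methyltransferases of Polycomb Repressive Complex 2 (PRC2), which places the repressive mark H3K27me3. This double mutant is sterile and was picked out of segregating progeny, and its alleles are written as clf-7 swn-28 in one place and as swn-7 clf-28 in another. The siFIE plants are T1 plants that carry an RNAi construct against FIE, a subunit of all PRC2 complexes. They were selected on kanamycin, and only plants of intermediate phenotype were pooled. The sample labels place siFIE in the C24 ecotype and the methods place it in Col, while every wildtype array is Col, so effects of ecotype and selection cannot be told apart from those of the construct. Nothing beyond the pools of plants is stated about separate cultures, so p-values measure the spread between pools.

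MADS genes encode transcription factors with a shared DNA-binding domain and fall into 2 lineages. Type II genes, called MIKC after their domain order, include the regulators of flowering and of floral organ identity. Type I genes are divided into the classes Mα, Mβ and Mγ, and many of them are active in the female gametophyte and in the endosperm, the tissue that nourishes the embryo. Proteins of the Mα class often pair with proteins of the Mγ class. Of the 10 genes, 6 belong to Mγ (PHE1, PHE2, AGL35, AGL36, AGL80 and AGL90) and 4 to Mα (AGL61, AGL62, AGL40 and AGL23). In the seed, PRC2 complexes with MEDEA and FIE restrain endosperm growth, and PHE1 is a well-known target. The arrays measured these genes after germination, in whole seedlings.

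The genes targeted in the mutants checked the labels. SWN fell 56.5-fold in clf swn, with RMA intensities between 118 and 392 against 11186 to 11643 in Col, and CLF fell 2.90-fold (limma, adjusted p = 9.5e-07 and 6.6e-06). Recomputed from probe intensities in 3 ways, which differ in background correction and scaling, the SWN change was log2 -4.55 to -5.10, against -5.82 in the deposited values. FIE fell 6.57-fold in siFIE, with 244 to 321 against 1768 to 1976 in Col (limma, adjusted p = 1.4e-06), although this change was less than 2-fold in the 3 recomputations (log2 -0.79 to -0.85). The paper also measured FIE mRNA in siFIE plants by RT-qPCR and reports it at no more than a small part of the Col level. Markers of other seed tissues also differed. In clf swn all 16 genes of the list for embryo and seed maturation rose, as did 7 of the 16 in siFIE, and their summed intensity per array was 493553 to 507715 in clf swn, 5919 to 10366 in siFIE and 3278 to 3517 in Col. NF-YB6, a LEC1-type embryo regulator of this list, rose 152-fold in clf swn (log2 7.24, and 4.67 to 5.58 in the 3 recomputations) and averaged 59.7 ± 9.3 in siFIE against 53.4 ± 10.3 in Col (SD, n = 3). None of 6 egg cell and synergid genes was called in clf swn, at summed intensities of 688 to 764 in clf swn, 706 to 741 in siFIE and 509 to 658 in Col. One of them, EC1.5, was called in siFIE at 2.04-fold, a call that ended in 7 alternatives, among them leaving out Col replicate 2 (log2 0.99), Col replicate 3 (log2 0.87) or siFIE replicate 1 (log2 0.99). Of 8 leaf photosynthesis genes 6 fell in clf swn. In siFIE 1 of the 8 was called, and 0 in the 3 recomputations or after the lowest 25% of genes by mean signal were left out, whereas 6 were lower at an adjusted p under 0.05 with any fold. Of 8 root genes 3 fell in clf swn. Among 4 reference genes UBQ10 was called up-regulated in clf swn (2.63-fold), a call that ended without background correction (log2 0.80) and with median scaling (log2 0.94). Seedlings are bulk samples, in which a change in the share of cells of one type and a change in RNA per cell cannot be told apart, and the part of these shifts in the values below was not tested.

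The 10 genes had low signals in every genotype. RMA intensity, the unit used throughout, is a background-corrected, normalized and linear signal that combines the probes of a gene. It depends on the probes as well as on the transcript, so the genes are compared with themselves across arrays and not with each other. The lowest value of any of the 10 genes was 21.2 and the highest 795, while the median of all genes lay between 1116 and 1169 on the 9 arrays. All 10 genes were under the median of the array on all 9 arrays. PHE1, PHE2, AGL61, AGL62 and AGL40 also stayed under the 25th percentile on all 9 arrays, which was 77.2 to 83.5, and AGL23 did so on 6 arrays. AGL35 was under it on 1 array, and AGL36, AGL90 and AGL80 on none. On this platform no detection call was at hand, so a signal in the lowest 25% was read neither as expression nor as its absence.

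**Figure D1:**
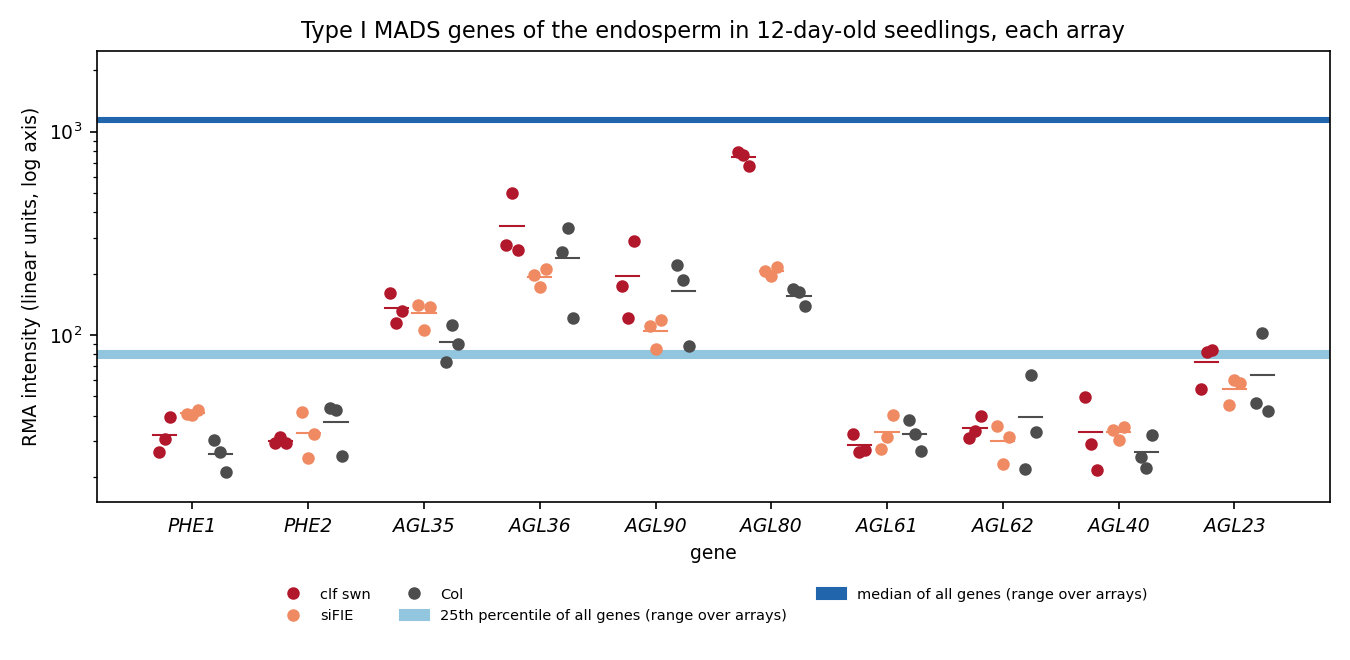
RMA intensity (linear units, log axis) of the 10 genes on each of the 9 arrays, with points for arrays and short lines for group means of clf swn, siFIE and Col from left to right. The bands give the range over arrays of the 25th percentile (77.2 to 83.5) and the median (1116 to 1169) of all genes, and AGL80 is the gene whose 3 clf swn arrays (676 to 795) stand clear of both other genotypes.

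AGL80 was up-regulated in clf swn. AGL80 (AT5G48670, chromosome 5) encodes an Mγ protein that the central cell needs to mature and to form endosperm after fertilisation. Its RMA intensities were 795, 769 and 676 in the 3 clf swn pools, 205, 194 and 216 in the siFIE pools, and 168, 162 and 139 in the Col pools. All clf swn pools were above all other pools, and the 3 genotypes did not overlap. Of all genes, 30.0% had 3 clf swn arrays above all Col arrays and 27.9% had them above all siFIE arrays. The 3 siFIE arrays were above all Col arrays in 18.4%. The rise in clf swn was 4.79-fold, with a 95% interval of 3.97 to 5.79 (log2 2.26, standard error 0.12, limma adjusted p = 4.6e-07). In the 3 recomputations from probe intensities the rise was smaller, at log2 1.2 to 1.56, and was called in each. In siFIE the same gene stood at 1.32-fold of Col, with an interval of 1.09 to 1.59, and was not called because the change was less than 2-fold (log2 0.40, limma adjusted p = 0.046). That p was under 0.05 in 2 of 14 alternatives, where it ranged from 0.026 to 0.45. The 2 include the series table, which holds the same values and so gives the same p. The direct test of clf swn against siFIE gave a log2 difference of 1.86, standard error 0.12 (limma adjusted p = 2.5e-06), and log2 1.07 without background correction.

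Both probes of AGL80 moved in clf swn. The scanner intensity of the probe at position 111 was 640, 759 and 614 in clf swn, 411, 455 and 419 in siFIE, and 326, 414 and 378 in Col. The probe at position 868 read 1267, 1295 and 1373 in clf swn, 538, 865 and 682 in siFIE, and 544, 948 and 432 in Col. These scanner values are not normalized between arrays, and in both probes the clf swn arrays were the 3 highest of the 9. After normexp background correction and quantile normalization the log2 changes in clf swn were 1.53 and 1.59, standard errors 0.15 and 0.19 (limma over 72000 probes, adjusted p = 3.6e-06 and 3.3e-05). In siFIE they were 0.27 and 0.14 (adjusted p = 0.25 and 0.69). Of the 20 probes of the 10 genes, these 2 were the ones at an adjusted p under 0.05 in clf swn, and 0 passed in siFIE, whereas 4 and 1 did so at an unadjusted p under 0.05. Without clf swn replicate 1 or without Col replicate 2, 4 probes passed in clf swn, and without Col replicate 3, 1 probe passed in siFIE. The 2 probes of a gene had changes of opposite sign for 5 of the 10 genes in clf swn and for 3 in siFIE. Shares over all probes and all genes are not given for these counts, so they were not read as particular to the 10 genes.

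**Figure D2:**
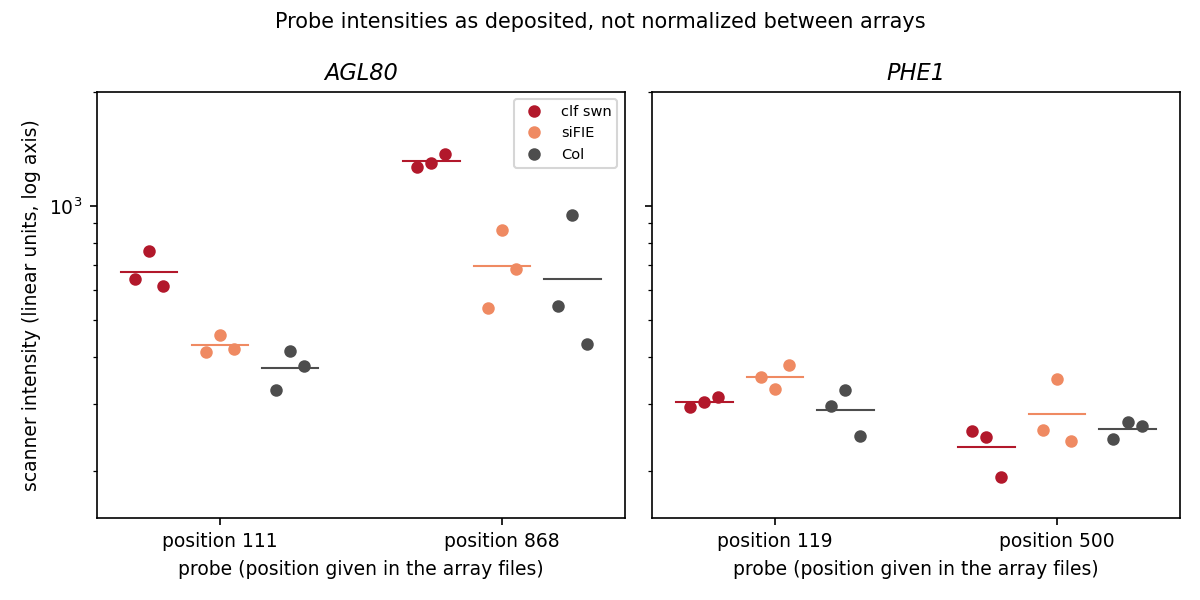
Scanner intensity (linear units, log axis, as deposited) of the 2 probes each of AGL80 and PHE1 on every array, with points for arrays and lines for group means of clf swn, siFIE and Col from left to right. The clf swn arrays are the 3 highest for both AGL80 probes, while the groups overlap in the PHE1 probe at position 500.

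AGL61 (DIANA), the Mα protein that pairs with AGL80 in the central cell, had no such change. Its intensities were 32.4, 26.5 and 27.1 in clf swn, 27.4, 31.5 and 40.4 in siFIE, and 38.1, 32.4 and 26.9 in Col. The genotypes overlapped, and the log2 changes were -0.17 in clf swn (95% interval -0.58 to 0.24, limma adjusted p = 0.48) and 0.02 in siFIE (-0.39 to 0.43, adjusted p = 0.95). Both intervals lie within a 2-fold change, at a signal in the lowest 25% of the array.

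PHE1 (AGL37), an Mγ gene that is imprinted and expressed from the paternal allele in endosperm, was not called in either genotype. It had intensities of 26.6, 30.8 and 39.4 in clf swn, 40.7, 40.1 and 42.8 in siFIE, and 30.2, 26.4 and 21.2 in Col. The siFIE pools were all above the Col pools, while the clf swn pools overlapped with Col. In siFIE the change was 1.60-fold (95% interval 1.22 to 2.1, log2 0.68, standard error 0.17, limma adjusted p = 0.022), which is less than 2-fold, and in clf swn it was 1.24-fold (0.95 to 1.63, adjusted p = 0.17). The siFIE value had an adjusted p under 0.05 in 5 of 13 alternatives, where it ranged from 0.021 to 0.43. The 5 include the series table, which holds the same values. Neither probe of PHE1 passed in siFIE, with log2 changes of 0.55 and 0.15 at positions 119 and 500 (adjusted p = 0.14 and 0.68). Sets of 3 arrays that were all above Col were common in siFIE, at 18.4% of all genes.

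PHE2 (AGL38), the close paralog of PHE1 on chromosome 1, had intensities of 29.4, 31.5 and 29.3 in clf swn, 41.5, 24.8 and 32.4 in siFIE, and 43.5, 42.7 and 25.4 in Col. Its genotypes overlapped, with log2 changes of -0.27 in clf swn and -0.17 in siFIE (limma adjusted p = 0.4 and 0.68). Transcripts of PHE1 and PHE2 are alike, as are those of AGL36 and AGL90. The probe sequences were not examined here, so whether a probe also reads the paralog was not tested.

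The other 3 Mγ genes gave higher signals with more spread. AGL36, which is imprinted and expressed from the maternal allele, read 275, 497 and 261 in clf swn, 197, 171 and 212 in siFIE, and 255, 336 and 121 in Col. The Col pools span all siFIE pools and 2 of the 3 clf swn pools, while the clf swn pool at 497 was above every Col pool. The log2 changes were 0.60 in clf swn (95% interval -0.23 to 1.42, limma adjusted p = 0.22) and -0.18 in siFIE (-1.01 to 0.65, adjusted p = 0.79). AGL90, its close homolog, read 175, 121 and 289 in clf swn, 111, 85.4 and 118 in siFIE, and 221, 185 and 87.7 in Col. Its log2 changes were 0.26 in clf swn (-0.61 to 1.12, adjusted p = 0.62) and -0.56 in siFIE (-1.43 to 0.31, adjusted p = 0.36). For both genes the clf swn pools were all above the siFIE pools, with log2 differences of 0.78 and 0.82, and neither difference passed the test (limma adjusted p = 0.12 for each). A set of 3 clf swn arrays above all siFIE arrays was seen in 27.9% of all genes.

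AGL35 read 161, 115 and 131 in clf swn, 141, 106 and 138 in siFIE, and 73.3, 112 and 89.7 in Col. The clf swn pools were all above Col by a narrow margin, which was so for 30.0% of all genes, and 1 siFIE pool fell below the highest Col pool. The changes were 1.49-fold in clf swn (log2 0.57, standard error 0.20, limma adjusted p = 0.038) and 1.41-fold in siFIE (log2 0.49, adjusted p = 0.12), less than the 2-fold needed for a call. The adjusted p in clf swn was under 0.05 in 5 of 14 alternatives, among them the series table with its same values, and ranged from 0.018 to 0.3. Neither AGL35 probe passed on its own in clf swn (adjusted p = 0.46 and 0.17).

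Of the Mα genes, AGL62 keeps the endosperm from forming cell walls too early. It had intensities of 31, 33.6 and 39.8 in clf swn, 35.5, 23.2 and 31.4 in siFIE, and 21.9, 63.7 and 33.1 in Col. The Col pools held both the lowest and the highest of the 9 values, and the log2 changes were -0.05 in clf swn and -0.28 in siFIE (limma adjusted p = 0.92 and 0.63). AGL40, which is related to AGL62, read 49.2, 29.0 and 21.5 in clf swn, 34.0, 30.4 and 35.3 in siFIE, and 25, 22.2 and 32.3 in Col (log2 0.26 and 0.34, adjusted p = 0.48 and 0.44). AGL23, which acts in the female gametophyte and in the embryo, read 54.1, 82.5 and 84.3 in clf swn, 45.2, 59.8 and 57.7 in siFIE, and 46.1, 102 and 42.0 in Col (log2 0.31 and -0.11, adjusted p = 0.47 and 0.85). In AGL62 and AGL23 the high Col value came from the same pool, Col replicate 2. Without it, AGL23 stood at log2 0.71 in clf swn (limma adjusted p = 0.03), less than 2-fold, and with each array left out in turn its value lay between 0.08 and 0.71.

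Counted together, clf swn had 1 of the 10 genes called up, where 8.78% of all genes were, and 0 of 10 called down, against 12.8% of all genes. In siFIE 0 of 10 were called in either direction, against 4.51% of all genes up-regulated and 3.19% down-regulated. At an adjusted p under 0.05 with any fold, 2 of 10 (AGL80 and AGL35) were higher in clf swn and 2 of 10 (PHE1 and AGL80) in siFIE, against 24.2% and 10.2% of all genes. In the other direction there were 0 of 10 in either mutant, against 22.7% of all genes in clf swn and 10.0% in siFIE. At an unadjusted p under 0.05 the numbers of the 10 genes were 2 in clf swn and 3 in siFIE, the third in siFIE being AGL35. Of all 30361 genes, 16077 in clf swn and 9785 in siFIE had such a p, in clf swn a larger share than 2 of 10. The median log2 change was 0.29 in clf swn and -0.04 in siFIE, and over all genes it was 0.05 and -0.02. Of the 25% of genes with the lowest mean signal over the 9 arrays, which hold PHE1, PHE2, AGL61, AGL62, AGL40 and AGL23, 3.14% were called higher in clf swn and 1.57% in siFIE. In the next 25%, which holds AGL80, AGL36, AGL90 and AGL35, these were 18.6% and 10.4%. This mean includes the mutant arrays, so a gene low in Col that rises strongly in a mutant can leave the lowest 25%. The shares by signal therefore depend in part on the changes themselves. The 10 genes were chosen with earlier results known, so none of the shares was tested or read as setting them apart from the rest of the array.

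The intervals show what changes in signal the arrays could have missed. In clf swn, the 95% intervals of 5 genes lay wholly within a 2-fold change (PHE1, PHE2, AGL61, AGL62 and AGL40), and those of 4 uncalled genes (AGL35, AGL36, AGL90 and AGL23) reached it. The 5 within 2-fold were under the 25th percentile on all 9 arrays. At such a signal an interval bounds the change in signal and was not read as a limit on the transcript. In siFIE the intervals of 6 genes lay within 2-fold, among them the low-signal PHE2, AGL61 and AGL40, and those of PHE1, AGL36, AGL90 and AGL62 reached it. For these uncalled genes a 2-fold change is not outside the error of 3 pools per genotype. The direct test of clf swn against siFIE called 1 of 10 genes, AGL80, against 6.82% of all genes that were higher in clf swn and 11.0% that were lower.

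**Figure D3:**
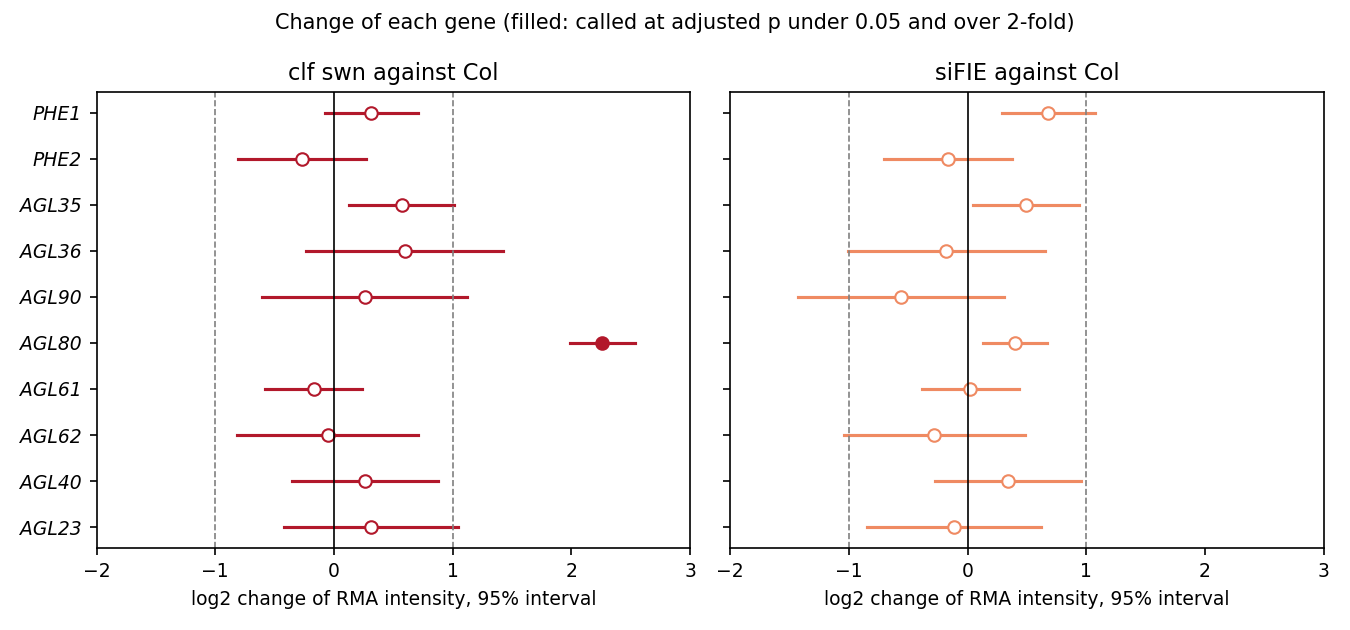
Log2 change of RMA intensity against Col with its 95% interval for each of the 10 genes, with clf swn in the left panel and siFIE in the right one. The dashed lines mark 2-fold, filled points are called genes, and AGL80 in clf swn (log2 2.26) is the 1 filled point of the 20.

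The other type I MADS genes gave a similar picture. Of 39 of them on the array, clf swn had 1 call up and 2 down and siFIE 1 up and 1 down, with median log2 changes of -0.01 and -0.22. AGL49 rose in both mutants, with 264, 332 and 286 in clf swn, 162, 186 and 160 in siFIE, and 47.8, 50.1 and 71.9 in Col (5.26-fold and 3.04-fold, limma adjusted p = 3.2e-06 and 2.2e-04). These groups did not overlap, but its siFIE rise was less than 2-fold in the 3 recomputations from probe intensities (log2 0.46 to 0.76) and its clf swn rise in the 1 without background correction (log2 0.82). AGL50 averaged 38.0 ± 5.1 in clf swn, 99.5 ± 12.7 in siFIE and 92.8 ± 20.2 in Col, and AGL43 averaged 55.6 ± 18.7 in clf swn, 79.9 ± 25.9 in siFIE and 126 ± 26.7 in Col (SD, n = 3). Both fell in clf swn (log2 -1.28 and -1.22, adjusted p = 3.2e-04 and 0.0096), and both calls ended in the 3 recomputations (log2 -0.32 to -0.63), that of AGL43 also without clf swn replicate 3 (log2 -0.95). AGL87 went apart in the mutants, with 5147, 5231 and 4774 in clf swn, 1615, 984 and 990 in siFIE, and 3241, 2822 and 2921 in Col. It fell 2.57-fold in siFIE (adjusted p = 8.9e-04), stood at 1.69-fold of Col in clf swn without a call, and differed between the mutants by log2 2.12 (limma adjusted p = 1.9e-05). AGL29 also differed between the mutants (log2 1.35, adjusted p = 1.1e-04), though its changes of log2 0.56 in clf swn and -0.78 in siFIE were not called against Col, and the difference was less than 2-fold in the 3 recomputations (log2 0.61 to 0.85). Of the 39 genes, 32 had a mean signal over the 9 arrays in the lowest 25% of all genes. The summed intensity per array of all 39 was 7716 to 8423 in clf swn, 3420 to 4143 in siFIE and 5411 to 5821 in Col. Much of this sum was AGL87, which averaged 5051 in clf swn, 1196 in siFIE and 2994 in Col.

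The MIKC genes stood at the other end. In clf swn 27 of 45 MIKC genes were called up and 5 down, and in siFIE 24 were called up and 3 down, with median log2 changes of 2.71 and 1.74. SEP1, a floral organ identity gene, averaged 8660 ± 544 in clf swn, 3978 ± 723 in siFIE and 94.8 ± 7.7 in Col, and FLC, a repressor of flowering, averaged 4095 ± 269 in clf swn, 510.2 ± 42.8 in siFIE and 62.7 ± 10.4 in Col (SD, n = 3). The log2 changes of SEP1 were 6.52 (clf swn) and 5.38 (siFIE), and those of FLC 6.04 (clf swn) and 3.03 (siFIE). In the 3 recomputations SEP1 stood at 4.57 to 5.28 in clf swn and 3.50 to 4.16 in siFIE, and FLC at 3.72 to 4.56 in clf swn and 1.37 to 1.93 in siFIE. In the lowest 25% by mean signal lay 2 of the 45 genes. The lists thus differed in this mean as well as in counts, but the mean holds part of the change itself. The part of the signal in the difference was not tested.

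**Figure D4:**
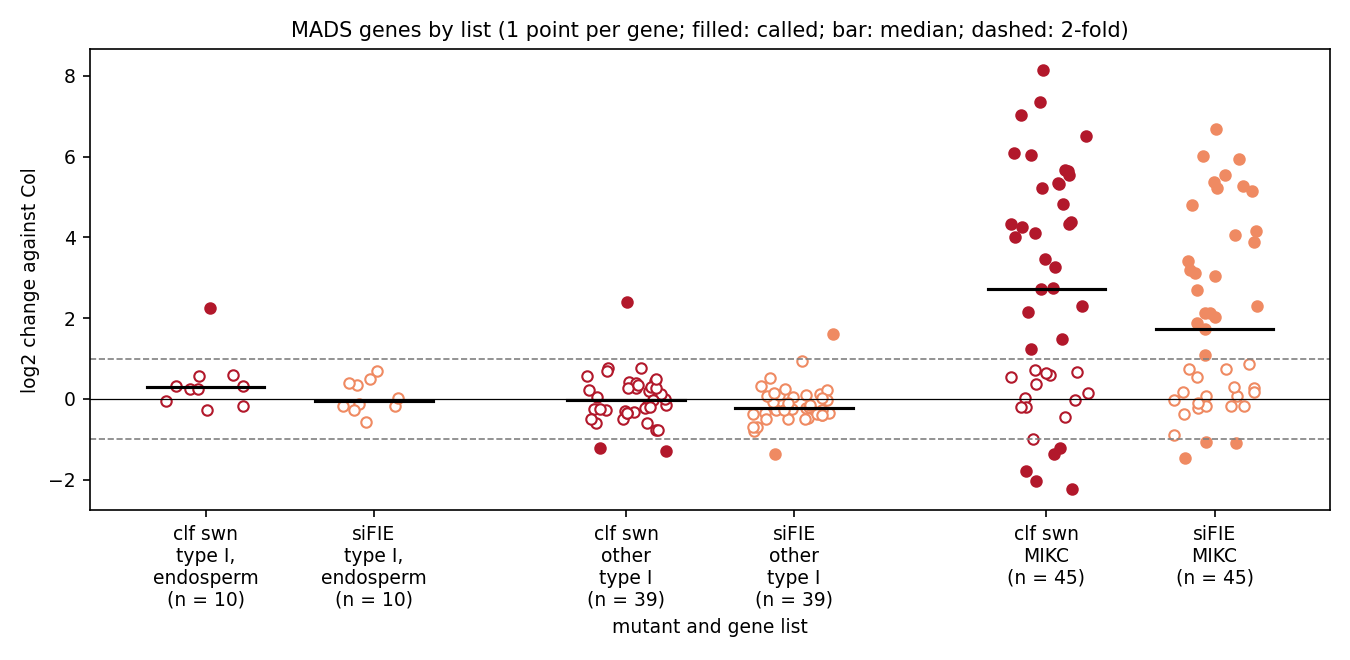
Log2 change against Col of the 10 type I genes of the endosperm, 39 other type I genes and 45 MIKC genes, for clf swn and then siFIE within each list, with 1 point per gene. Filled points are called genes, black bars are list medians (0.29, -0.04, -0.01, -0.22, 2.71 and 1.74 from left to right) and dashed lines mark 2-fold.

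Other genes of the endosperm were followed as a list, to set the type I genes beside the tissue they are known from. In clf swn 6 of these 17 genes rose and in siFIE 2, and 0 fell in either, with median log2 changes of 0.44 and -0.08. VIM5, a paternally expressed gene of the VIM family of methylcytosine-binding proteins, had intensities of 14487, 14851 and 17371 in clf swn, 393, 747 and 792 in siFIE, and 26.2, 24.5 and 31.2 in Col (log2 9.16 and 4.50, limma adjusted p = 7e-09 and 4.1e-06). MYB118, a regulator of endosperm maturation, read 493, 711 and 587 in clf swn, 21.7, 22.0 and 16.4 in siFIE, and 41.6, 25.6 and 27.3 in Col, which is a rise of log2 4.26 in clf swn (adjusted p = 3.5e-07) and -0.63 in siFIE without a call. HDG3, a paternally expressed homeodomain gene, read 381, 508 and 489 in clf swn, 78.6, 139 and 146 in siFIE, and 31.3, 24.5 and 24.1 in Col (log2 4.11 and 2.14, adjusted p = 8.5e-07 and 2.8e-04). For these 3 genes no clf swn array overlapped with Col. Their changes were smaller in the 3 recomputations, where VIM5 stood at log2 5.84 to 7.01 in clf swn and 1.75 to 2.61 in siFIE, MYB118 at 2.06 to 2.77 in clf swn and HDG3 at 1.60 to 2.39 in clf swn.

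Smaller rises in clf swn were those of the auxin synthesis gene YUC10 (log2 2.27), SUVH8 of the SUVH methyltransferase family (log2 1.63), and ZOU (log2 1.11), a bHLH gene needed for endosperm breakdown. The call of YUC10 ended without background correction (log2 0.77), those of SUVH8 and ZOU in all 3 recomputations (log2 0.35 to 0.85), and that of HDG3 in siFIE likewise (log2 0.52 to 0.92). The summed intensity of the 17 genes was 18475 to 21451 in clf swn, 3539 to 3852 in siFIE and 2493 to 3010 in Col, and 8 of them had a mean signal in the lowest 25%. Most of the sum in clf swn was VIM5, which averaged 15570 there, 644 in siFIE and 27.3 in Col. The other 11 genes, FWA, HDG8, ALE1, MPC, TAR1, HDG9, SUVH7, WRKY10, FH5, ADM and IKU2, were not called in either mutant.

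**Figure D5:**
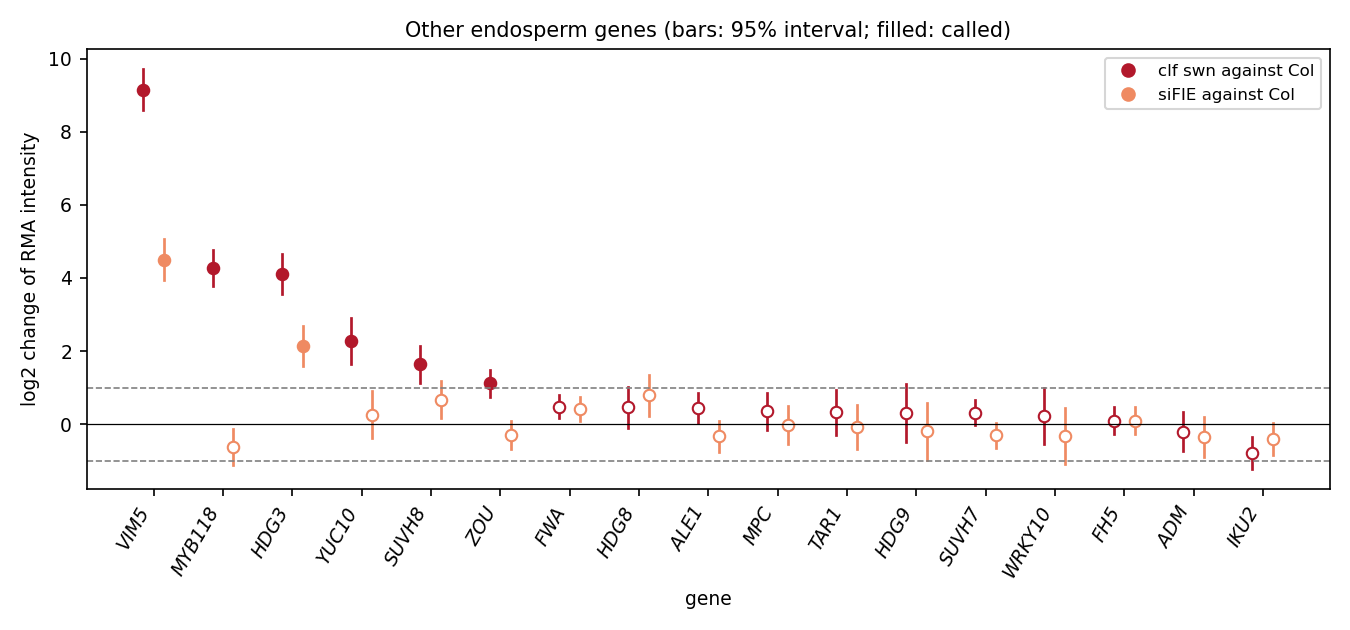
Log2 change of RMA intensity against Col with its 95% interval for 17 other endosperm genes, clf swn to the left and siFIE to the right for each gene, in falling order of the clf swn change. Filled points are called genes, dashed lines mark 2-fold, and VIM5 reaches log2 9.16 in clf swn and 4.50 in siFIE while 11 genes are open in both.

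MEA, the PRC2 methyltransferase gene that acts in the endosperm, averaged 59.6 ± 29.6 in clf swn, 220.0 ± 59.4 in siFIE and 35.1 ± 3.7 in Col (SD, n = 3). It rose 6.12-fold in siFIE (limma adjusted p = 5.4e-04), a call that ended without background correction (log2 0.70), and was not called in clf swn (adjusted p = 0.14). Among 8 genes for PRC2 subunits, 2 (CLF and SWN) fell and 0 rose in clf swn, while 1 (FIE) fell and 1 (MEA) rose in siFIE.

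The genes whose pattern over the 9 arrays lay closest to that of AGL80 were found by the root mean square difference of log2 values after each gene was centred on its Col mean. CYP88A3, an ent-kaurenoic acid oxidase of gibberellin synthesis, lay closest, with a difference of 0.106 and Pearson's r of 0.995 over the 9 arrays, and changes of log2 2.21 in clf swn and 0.45 in siFIE. XYP1, a xylogen protein gene, followed with 0.122 and r of 0.994 (log2 2.23 and 0.28), and AT2G24650 with 0.145 and r of 0.990 (log2 2.22 and 0.52). The 9 arrays share 3 genotypes, and genes with like changes in both mutants are close by this measure whatever they do.

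The genes next to the 10 type I genes, in the order of the reference annotation, showed no shared direction. There were 19 different neighbours on the array, of which clf swn had 3 calls up and 2 down, and siFIE 1 up. Over all genes 8.78% were called up and 12.8% down in clf swn, and 4.51% up and 3.19% down in siFIE. With so few neighbours, the counts were not read as a result about them. Those named were chosen after their values were seen. On chromosome 1, PHE2 and PHE1 lie close together, with XTH17 beside PHE2 and CYP96A3 beside PHE1. XTH17, a xyloglucan endotransglucosylase gene, fell 7.76-fold in clf swn, to 290.0 ± 42.3 against 2271 ± 526 in Col (SD, n = 3), which is log2 -2.96, and -2.11 without background correction. CYP96A3, a cytochrome P450 gene, rose 2.70-fold to 96.1 ± 31.8 in clf swn, against 34.8 ± 7.1 in Col, a call that ended in the 3 recomputations (log2 0.42 to 0.76). Beside AGL80, AT5G48660 rose 2.16-fold in clf swn, to 3186 ± 551 against 1463 ± 146 in Col, a call that ended without background correction (log2 0.97) and without clf swn replicate 1 (log2 1.00). Its other neighbour, AT5G48680, was not called (log2 0.53). Beside AGL40, AT4G36600 rose 132-fold in clf swn, to 19163 ± 2210 against 148 ± 36.6 in Col, and averaged 157 ± 19.1 in siFIE (log2 7.05 in clf swn, and 5.07 to 5.78 in the 3 recomputations), while AGL40 itself was not called. AT5G27965 beside AGL90 fell 3.77-fold in clf swn, a call that ended without background correction (log2 -0.64), and TAT3, a tyrosine aminotransferase gene beside AGL61, rose 21.9-fold in siFIE (log2 4.45, and 2.74 to 3.30 in the 3 recomputations).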

How the data were processed

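Total RNA of 9 seedling pools was hybridised to NimbleGen arrays of 60-mer probes for TAIR version 6, 1 array per pool. The authors deposited the scanner intensity of each probe, written by NimbleScan 2.4.31 and not normalized, and an RMA intensity per gene on a linear scale, named RMA in the submitters' processing notes. How RMA was set is not given in the sources used here. A second table, for the whole series, held the same values. Median RMA intensities lay between 1116 and 1169 on the 9 arrays, so no further normalization was applied. The number of arrays limits the precision.

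Log2 RMA intensities of all 30361 genes were fitted by limma (3.58.1, R 4.3.3) as 3 group means over the 9 arrays. A call needed a change of more than 2-fold and a two-sided p under 0.05 after Benjamini-Hochberg adjustment across the array. Fold changes are of geometric means. The 72000 probes were fitted the same way after normexp (offset 50) and quantile normalization. Summaries used pandas 2.3.3, scipy 1.17.1 and numpy 2.4.6 under Python 3.11.15, and figures matplotlib 3.10.9.

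The members and the gene lists were chosen with earlier results of these data known. Named were all 10 members, FIE, CLF and SWN, up to 4 genes of each other list with the smallest p, and the 3 genes closest to each called member over the 9 arrays. AGL43, SUVH8, ZOU, the endosperm genes without a call and the neighbours were named after their values were seen. Lists were written from general knowledge, and 161 of 170 listed genes were used. Of the others, 2 were not on the array and 7 had another symbol or none in the reference (TAIR10.1, in which 29976 genes had their locus). No sequences were taken from it, and its chromosomes and start positions were used to order the genes for the choice of neighbours.

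The fit was tested on simulated data of 30361 genes, 100 of them changed at each fold. For clf swn it recovered 81% at 3-fold and 95% at 5-fold, making 2 false calls. For siFIE it recovered 83% and 96%, making 1 false call. The changed genes were drawn from all signal levels, and the full change was added whatever the signal. These rates are thus not the recovery for the low-signal members. Alternatives included 3 recomputations of the gene values from probe intensities. These used normexp with quantile normalization, quantile normalization without background correction, and normexp with median scaling. Further alternatives were the series table, a filter at the 25th percentile of mean signal, the arrays of 2 groups only, and the replicate number as a block. The last were a t-test with pooled variance, no fold threshold, and leaving out each array. The paper's methods name no test for the arrays. Replicate numbers were checked for pairing by the correlation of same-numbered arrays' deviations from their group means. No 2 arrays held the same values.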

Additional observations from a re-analysis of the deposited data

Results flagged for a closer look

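For the following genes the change in clf swn and the change in siFIE differed from each other, as tested directly by limma's contrast of clf swn against siFIE (adjusted p under 0.05 over all genes and more than 2-fold). Of the 10 type I genes this was AGL80, with a log2 difference of 1.86 (standard error 0.12, adjusted p = 2.5e-06). Among the other type I genes AGL87 differed by 2.12, AGL29 by 1.35 and AGL50 by -1.39. Among endosperm genes the differences were 4.90 for MYB118, 4.66 for VIM5, 2.01 for YUC10, 1.96 for HDG3 and 1.42 for ZOU. The MIKC genes FLC and SEP1 differed by 3.01 and 1.14, and the embryo gene NF-YB6 by 7.08. Of the PRC2 genes, FIE differed by 3.57, CLF by -1.45, SWN by -5.87 and MEA by -1.96. The genes closest to AGL80 differed by 1.95 (XYP1), 1.76 (CYP88A3) and 1.70 (AT2G24650). Of the neighbours, AT4G36600 differed by 6.93, CYP96A3 by 1.39, AT5G27965 by -1.80, XTH17 by -2.38 and TAT3 by -4.14. Of the genes named here, the differences of AGL29, AGL50, ZOU, CYP96A3 and AT5G27965 were less than 2-fold in the 3 recomputations from probe intensities. So were those of MEA (-0.67) and YUC10 (0.70) without background correction, that of YUC10 also with median scaling, and that of SEP1 without siFIE replicate 1 (0.98). Others stayed over 2-fold but shrank in the recomputations, such as NF-YB6 (4.64 to 5.54), AT4G36600 (4.90 to 5.5), FIE (1.33 to 1.49), MYB118 (2.24 to 3.17) and TAT3 (-2.57 to -3.06). No gene was tested for single arrays far from their group, since each group holds 3 arrays.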

How the results depend on the processing

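AGL80 was called in clf swn in every alternative run (log2 1.2 to 2.33), and so was its difference between the mutants (1.07 to 1.93). The filter at the 25th percentile left 4 of the 10 genes. The recomputations with normexp add an offset of 50 before log2, and the other removes no background. Either setting by itself makes log2 changes smaller, most of all at low signals, and its share in the shifts below was not tested. The cause of the shifts below was not tested unless the setting itself gives it (fewer genes or arrays, no threshold).

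Without a fold threshold the members called were 2 in clf swn (AGL35 at log2 0.57 and AGL80) and 2 in siFIE (PHE1 at 0.68 and AGL80 at 0.40), and the genes called were 14223 in clf swn, 6149 in siFIE and 12613 between the mutants, against 6562, 2338 and 5421 with it. The lists then had 10 and 4 calls among the other type I genes in clf swn and siFIE (3 and 2 with the threshold), 5 and 2 among root genes (3 and 0), 1 egg cell or synergid gene in clf swn (0) and 6 leaf photosynthesis genes in siFIE (1).

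With no background correction the calls numbered 3935 in clf swn, 1126 in siFIE and 3032 between the mutants. In siFIE they numbered 1551 with normexp and quantile normalization and 1502 with normexp and median scaling. In all 3 recomputations siFIE had 1 other type I gene and 1 endosperm gene called (2 of each in the deposited values), 0 egg cell or synergid genes and 0 leaf photosynthesis genes (1 of each). PRC2 genes called in siFIE were 0 without background correction and 1 with normexp and either scaling (2 in the deposited values). In clf swn, the other type I genes had 0 calls without background correction and 1 with normexp and either scaling, the endosperm genes 3 without background correction (6 in the deposited values), and the reference genes 0 without background correction and 0 with median scaling (1). With the filter 1 other type I gene was called in clf swn, and 1 PRC2 gene and 0 photosynthesis genes in siFIE. The t-test with pooled variance, after adjustment, called 0 egg cell or synergid genes in siFIE.

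The sign of uncalled members moved with single arrays. With each array left out, AGL62 lay between -0.41 and 0.36, AGL90 between -0.14 and 0.56 and AGL40 between -0.07 and 0.53 in clf swn. In siFIE, PHE2 lay between -0.42 and 0.02, AGL62 between -0.63 and 0.13, AGL61 between -0.13 and 0.15 (and at -0.07 with median scaling), AGL36 between -0.61 and 0.13 and AGL23 between -0.35 and 0.29. The probe of PHE1 at position 500 lay between -0.09 and 0.30 and that of AGL80 at position 868 between -0.11 and 0.27 in siFIE. Member probes that passed numbered 2 to 4 in clf swn, 0 to 1 in siFIE and 2 to 4 between the mutants, and egg cell or synergid genes called in siFIE 0 to 1.

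Arrays that share a replicate number did not deviate together (r of -0.164 to 0.169, against -0.153 to 0.197 for other pairs), and 2 of 9 arrays correlated best with their own number. With the replicate number as a block 6542 genes were called in clf swn, 2317 in siFIE and 5390 between the mutants, AGL80 kept its call in clf swn (log2 2.26, limma adjusted p = 9e-06), and no call of a member changed.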
